A study of Mus musculus with 23 samples.

Results

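Genes that carry sugars into and out of the enterocyte and that handle fructose and glucose inside it were followed across the small intestine of busulfan-treated mice. The 8 genes were chosen by name, by their role, with earlier results of these data known: Slc5a1, Slc2a5, Slc2a2, Khk, Fbp1, G6pc, Slc37a4 and Txnip, of 19215 entries in the table. Of these, 7 were tested, among 11337 genes whose mean reached 1 FPKM (fragments counted per length of transcript and per size of library), and Slc2a5 fell below that mean.

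All mice were ICR males given a single injection of 40 mg/kg busulfan, a cytotoxic drug that damages the intestinal lining, at 3 weeks of age. Sa mice then received saline. The other mice received fecal microbiota transplants (FMT), that is, small intestinal contents of donor mice, from donors dosed with vehicle (Con-FMT), with 10 mg/kg alginate oligosaccharides (A10-FMT) or with 100 mg/kg (A100-FMT); the study describes gavage for 1 week and sampling 1 week later, at 5 weeks of age. Contents were pooled within each donor group, so that the mice of a group share 1 inoculum and donors cannot be told apart from the dose. No mice without busulfan are among the 23 libraries. The sample names carry 2 codes, called set 1 and set 2 here, which the labels do not explain, and the labels do not say to which set the schedule above applies. Each group had 3 libraries in each set, except Sa of set 1, which had 2. Nothing in the labels says how many animals made up a library, and p-values measure the spread between these samples.

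In the intestine, glucose and galactose enter the enterocyte from the lumen with sodium through SGLT1, encoded by Slc5a1, and fructose enters through GLUT5, encoded by Slc2a5. GLUT2, encoded by Slc2a2, lets sugars leave at the basolateral side. Ketohexokinase (Khk) phosphorylates fructose, and its products can be turned back towards glucose, a path on which fructose-1,6-bisphosphatase (Fbp1) acts and which ends when glucose-6-phosphate is moved into the endoplasmic reticulum by its transporter (Slc37a4) and cleaved by glucose-6-phosphatase (G6pc). Txnip encodes a protein that restrains glucose uptake, and its gene is switched on by the glucose-sensing factor ChREBP (Mlxipl). On GRCm38.p6, by RefSeq, the genes lie at chr5:33104219-33162699 (Slc5a1), chr4:150119344-150144168 (Slc2a5), chr3:28697903-28728361 (Slc2a2), chr5:30921436-30931248 (Khk), chr13:62864753-62888298 (Fbp1), chr11:101367716-101377903 (G6pc), chr9:44396946-44402966 (Slc37a4) and chr3:96557957-96561857 (Txnip), and values are per gene, not per exon or isoform.

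The libraries were those of intestinal epithelium. The 10 enterocyte markers summed to 5298.9 to 14699.4 FPKM, led by Apoa1. The 8 smooth muscle markers summed to 7.19 to 12.1 FPKM, led by Smtn (6.23 to 11.32 FPKM) and Tagln (0.75 to 1.83), while the other 6, among them Acta2, Myh11 and Des, reached at most 0.09 FPKM. Summed markers of immune cells (2.91 to 14.3 FPKM, led by Cd8a), hepatocytes (1.36 to 3.03, led by Apoh) and pancreatic acinar cells (3.31 to 7.93, led by Cela1) were likewise far below the enterocyte sum. Proximal markers summed to 908.0 to 2739.8 FPKM, led by Fabp1, distal markers to 674.0 to 1769.3, led by Fabp6, and colon markers to 144.0 to 226.0, led by Car4. One library stood apart, Sa replicate 3 of set 1: the deviation of its genes from the median library rose with their GC content (Spearman's rho of 0.69 across 10527 genes, against -0.221 to 0.22 in the other libraries). Its title and its description also name different columns of the table. Each comparison with Sa of set 1 rests on it, and also on the only other Sa library of that set. Read depth is unknown, since the files give no counts.

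Slc5a1, the gene of the sodium-coupled glucose transporter, was the most abundant of the 8. It averaged 156 FPKM over the libraries, above 94.6% of tested genes. The glucose transporter of the basolateral membrane, Slc2a2, averaged 9.31 FPKM and ranged from 4.53 to 14.14; FPKM being per length, Slc5a1 was 12.3 to 27.0 times higher than Slc2a2 in every library. The fructose transporter Slc2a5 was near the floor, between 0 and 2.79 FPKM, and was listed at 0 in 3 of 23 libraries. Khk, which acts on the fructose that enters, averaged 124 FPKM. The median ratio of Khk to Slc2a5 was 176 over the 20 libraries in which Slc2a5 was above 0.

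**Figure D1:**
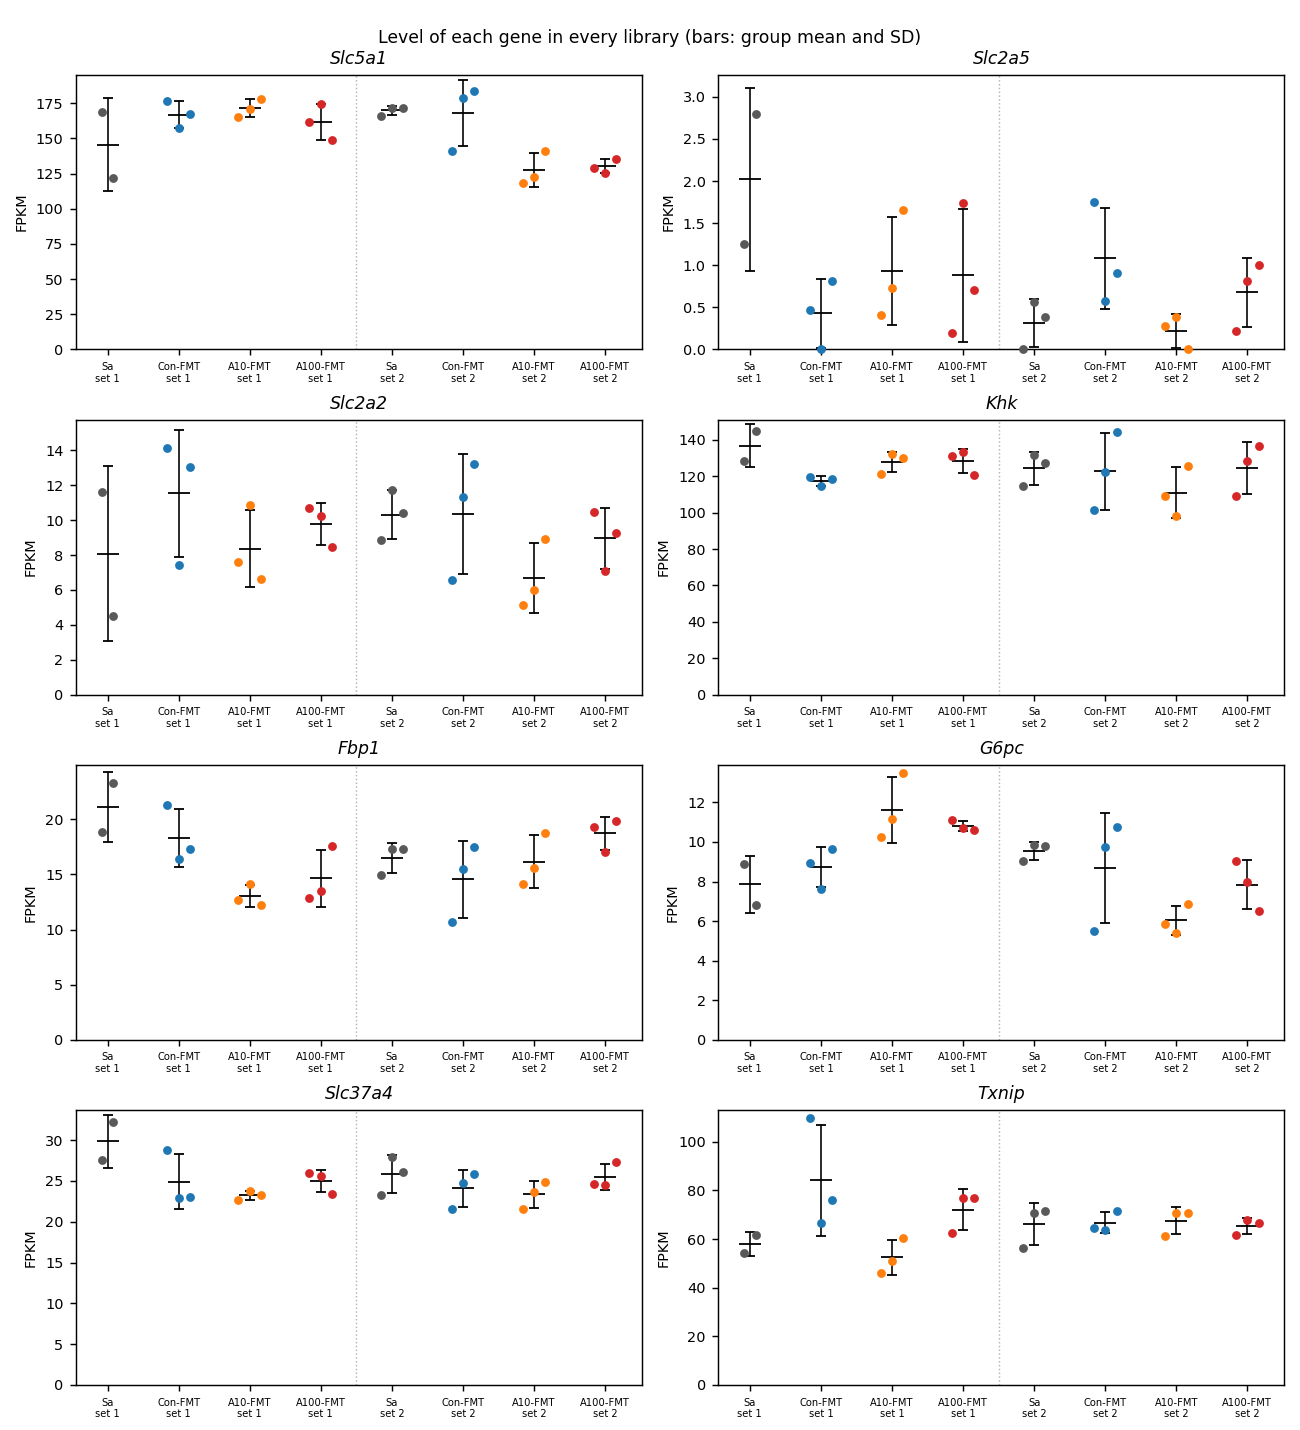
Level of each of the 8 genes in FPKM (vertical axis, from 0) in every library of the 8 groups (horizontal axis). Points are libraries, and bars are the group mean and SD. Slc5a1 lies between 118 and 141 FPKM in A10-FMT of set 2 and between 166 and 178 in A10-FMT of set 1, and Slc2a5 stays at or below 2.79 FPKM.

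Slc5a1 was lower in set 2 than in set 1 of A10-FMT. Its levels in A10-FMT were 166, 171 and 178 FPKM in set 1 and 118, 123 and 141 FPKM in set 2. The 3 libraries of set 2 all lay below the 3 of set 1. The difference was -0.43 ± 0.11 (SE) in log2(FPKM + 1), with an adjusted p of 0.0066 (limma, Benjamini-Hochberg), and it passed under each of the 10 alternative settings and without any 1 of the 23 libraries. In A100-FMT, levels were 161, 175 and 149 FPKM in set 1 and 129, 126 and 136 FPKM in set 2, again without overlap, but the difference (-0.31 ± 0.11) did not pass (adjusted p = 0.22, limma).

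Within set 2, Slc5a1 was at 166, 172 and 172 FPKM in Sa and at 141, 179 and 184 FPKM in Con-FMT. All A10-FMT and A100-FMT libraries of set 2 lay below all Sa libraries of that set. Against Sa the differences were -0.42 ± 0.11 in A10-FMT (95% interval -0.64 to -0.19) and -0.38 ± 0.11 in A100-FMT (-0.61 to -0.16), with adjusted p of 0.093 and 0.15 (limma). These did not pass in the main fit, and other settings differed. With a replicate block the adjusted p were 0.095 and 0.17 (limma), and with only the groups compared in the fit 0.049 and 0.063. With the column that the description of Sa replicate 3 of set 1 names, they were 0.033 and 0.034. Leaving out that library, which enters only through the shared spread, left the size of both differences unchanged. It narrowed that spread, so whether the differences pass depends on that library as well. In set 1, where Sa stood at 169 and 122 FPKM, A10-FMT differed from Sa by 0.25 ± 0.12, which did not pass either, and by 0.02 (adjusted p = 0.94) without replicate 3, the library at 122 FPKM.

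The 2 sets differed in these effects. Slc5a1 changed by -0.67 ± 0.16 more in set 2 than in set 1 for A10-FMT against Sa (adjusted p = 0.0059, limma) and by -0.55 ± 0.16 for A100-FMT against Sa (adjusted p = 0.023). Without Sa replicate 3 of set 1, which leaves 1 Sa library in the set, the values were smaller, at -0.44 and -0.32, and neither passed. With the column that its description names they were -0.60 (adjusted p = 0.0040, limma) and -0.48 (adjusted p = 0.029), and both passed.

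Khk was steady. It ranged from 98.18 FPKM in A10-FMT of set 2 to 145.14 FPKM in Sa of set 1, and no contrast of it was called. The order of its group means ran from 137 ± 11.8 FPKM (SD, n = 2) in Sa of set 1 to 111 ± 13.9 FPKM (SD, n = 3) in A10-FMT of set 2, and all 7 neighbouring pairs in that order overlapped. Slc2a2 was also not called in any contrast; its lowest group mean was 6.69 ± 2.0 FPKM (SD, n = 3) in A10-FMT of set 2 and its highest 11.5 ± 3.62 FPKM (n = 3) in Con-FMT of set 1. Within set 2, Slc2a2 in A10-FMT differed by -0.58 ± 0.30 from Sa and by -0.54 ± 0.30 from Con-FMT (adjusted p of 0.39 and 0.49, limma). Averaged over both sets, the difference between A10-FMT and Con-FMT was -0.47 ± 0.21, with a 95% interval of -0.91 to -0.03, and did not pass (adjusted p = 0.77).

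G6pc, the gene of glucose-6-phosphatase, differed in the same way. G6pc in A10-FMT was at 10.3, 11.2 and 13.5 FPKM in set 1 and at 5.84, 5.41 and 6.86 FPKM in set 2. The highest library of set 2 lay below the lowest of set 1. The difference was -0.84 ± 0.17 in log2(FPKM + 1) (95% interval -1.20 to -0.48, adjusted p = 0.0016, limma), and it too passed under all 10 alternatives and without any 1 library. In A100-FMT it was at 11.1, 10.7 and 10.6 FPKM in set 1 and 6.52 to 9.02 FPKM in set 2, without overlap, and did not pass (-0.43 ± 0.17, adjusted p = 0.27).

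Of the 7 tested genes, G6pc and Slc5a1 were called between the sets within A10-FMT, where 30.4% of all tested genes were called. None was called within Sa (38.1% of tested genes), Con-FMT (0.00882%) or A100-FMT (0.0%); in the 28 member comparisons of this kind 7 had an unadjusted p under 0.05. Values of 4 of the 7 did not overlap between the sets in A10-FMT (Slc5a1, Fbp1, G6pc and Txnip), against 54.5% of all tested genes, and values of 2 of the 7 in A100-FMT (Slc5a1 and G6pc), against 27.8%.

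Markers of enterocytes and of dividing crypt cells differed between the same groups. In A10-FMT the enterocyte markers summed to 11952.6 to 14699.4 FPKM in set 1 and to 5298.9 to 6948.2 FPKM in set 2, while the 8 crypt proliferation markers, led by Pcna, summed to 370 to 391 FPKM in set 1 and to 486 to 518 FPKM in set 2. In the other groups the enterocyte sum lay between 6829.4 and 10792.6 FPKM, and the proliferation sum between 419 and 527 FPKM. A100-FMT of set 2 had a proliferation sum as high (481 to 527 FPKM) with an enterocyte sum of 7768.4 to 8683.7 FPKM. Across the 23 libraries, which share these groups, the log2 level of G6pc had a Pearson's r of 0.811 with the enterocyte sum and that of Slc5a1 an r of 0.652. With the proliferation sum the values were -0.759 and -0.616. For the other tested genes r ran from -0.473 (Fbp1) to 0.453 (Khk) with the enterocyte sum, and from -0.455 (Khk) to 0.405 (Fbp1) with the proliferation sum. The sets taken apart could differ. With the enterocyte sum, r in set 1 and set 2 was 0.874 and 0.729 for G6pc and 0.553 and 0.685 for Slc5a1. For Fbp1 it was -0.881 and 0.0777. With the proliferation sum, G6pc had -0.735 and -0.67, Slc5a1 -0.223 and -0.853, and Fbp1 0.756 and 0.0333. In bulk tissue, fewer enterocytes and less RNA per enterocyte cannot be told apart, and the part of the cell make-up in these differences was not tested.

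**Figure D2:**
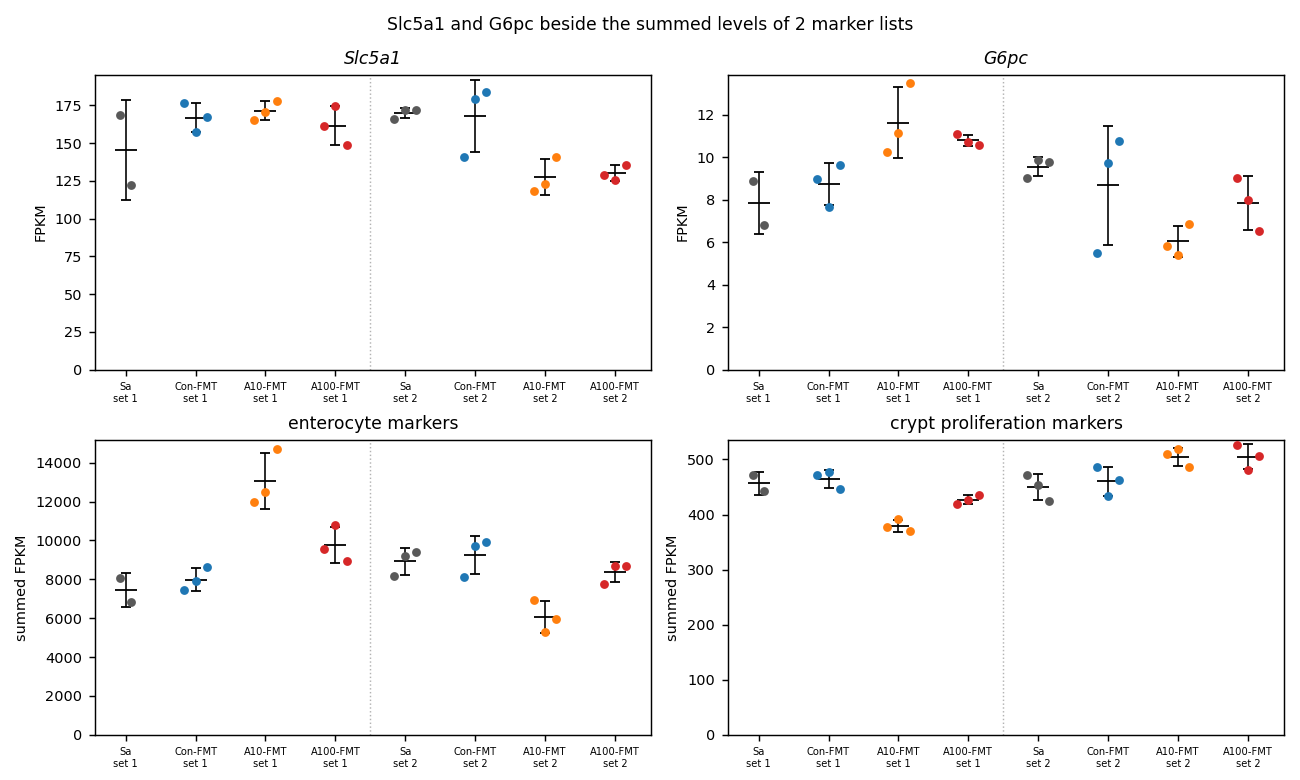
Slc5a1 and G6pc in FPKM (top) and the summed FPKM of the enterocyte and crypt proliferation markers (bottom) in every library; points are libraries, bars the group mean and SD, and axes start at 0. The group means of G6pc and of the enterocyte sum are both highest in A10-FMT of set 1 and lowest in A10-FMT of set 2. The proliferation sum is at 486 to 518 FPKM in A10-FMT of set 2 and at 481 to 527 FPKM in A100-FMT of set 2.

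Against Sa, the 7 genes gave 5 calls in 21 comparisons in set 1. The share of all tested genes called was 26.9% for Con-FMT, 32.0% for A10-FMT and 35.2% for A100-FMT, so that a share of 5 in 21 lay near the background. In set 1, G6pc rose in A10-FMT by 0.51 ± 0.19 (adjusted p = 0.047) from 8.87 and 6.83 FPKM in Sa. When single libraries were left out, this call was the least stable. It passed in 7 of those 23 fits, against 19 to 22 for the others. Under the 10 alternative settings it passed in 5, and Txnip in Con-FMT passed in 4. Fbp1 fell from 18.9 and 23.3 FPKM in Sa to 12.7, 14.2 and 12.2 FPKM in A10-FMT (-0.65 ± 0.17, adjusted p = 0.0100) and to between 12.87 and 17.62 FPKM in A100-FMT (-0.50 ± 0.17, adjusted p = 0.034). In both cases every FMT library lay below both Sa libraries. Slc37a4, at 27.6 and 32.2 FPKM in Sa, was at 22.68 to 23.79 FPKM in A10-FMT (-0.34 ± 0.10, adjusted p = 0.020), again without overlap. The fifth call was Txnip in Con-FMT (0.50 ± 0.16, adjusted p = 0.036). All p are from limma.

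None of the 5 calls held without Sa replicate 3 of set 1, which leaves 1 Sa library in the set, assumed to vary like the other groups. The changes then were 0.35 for G6pc (adjusted p = 0.37, limma), -0.51 and -0.36 for Fbp1 in A10-FMT and A100-FMT (0.15 and 0.50), -0.24 for Slc37a4 (0.24) and 0.59 for Txnip (0.69). All kept their direction, and that of Txnip was larger than with the library. With the column that the description of Sa replicate 3 names, 2 calls in A10-FMT held. These were Fbp1 (-0.53, adjusted p = 0.020, limma) and G6pc (0.64, adjusted p = 0.022). Fbp1 in A100-FMT, Slc37a4 in A10-FMT and Txnip in Con-FMT did not pass there (adjusted p of 0.15, 0.16 and 0.19). With only the 2 groups compared in the fit, the changes were those given first, and the adjusted p ranged from 0.27 to 0.45. Without Sa replicate 1 of set 1, which leaves replicate 3 as the only Sa library of the set, more comparisons were called. The share of all tested genes called in that fit is not given here, so this rise is not read as one of these genes. In set 1, values did not overlap with those of Sa for 3 of 7 genes in A10-FMT (37.4% of all tested genes) and for 4 of 7 in A100-FMT (39.8%); in set 2 the counts were 2 of 7 in A10-FMT (30.6%) and 2 of 7 in A100-FMT (28.5%), Slc5a1 and G6pc both times. In set 2 none of the 21 comparisons against Sa was called by limma (3 at an unadjusted p under 0.05), against 0.0353%, 0.423% and 0.0353% of all tested genes for Con-FMT, A10-FMT and A100-FMT. Over both sets none was called either (4 at an unadjusted p under 0.05), against 0.75%, 0.132% and 0.891%. The nearest were Slc37a4 (-0.24 ± 0.07, adjusted p = 0.12) and Fbp1 (-0.34 ± 0.12, adjusted p = 0.16) in A10-FMT; without Sa replicate 3 of set 1 they were at -0.19 (adjusted p = 0.42) and -0.27 (adjusted p = 0.51).

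**Figure D3:**
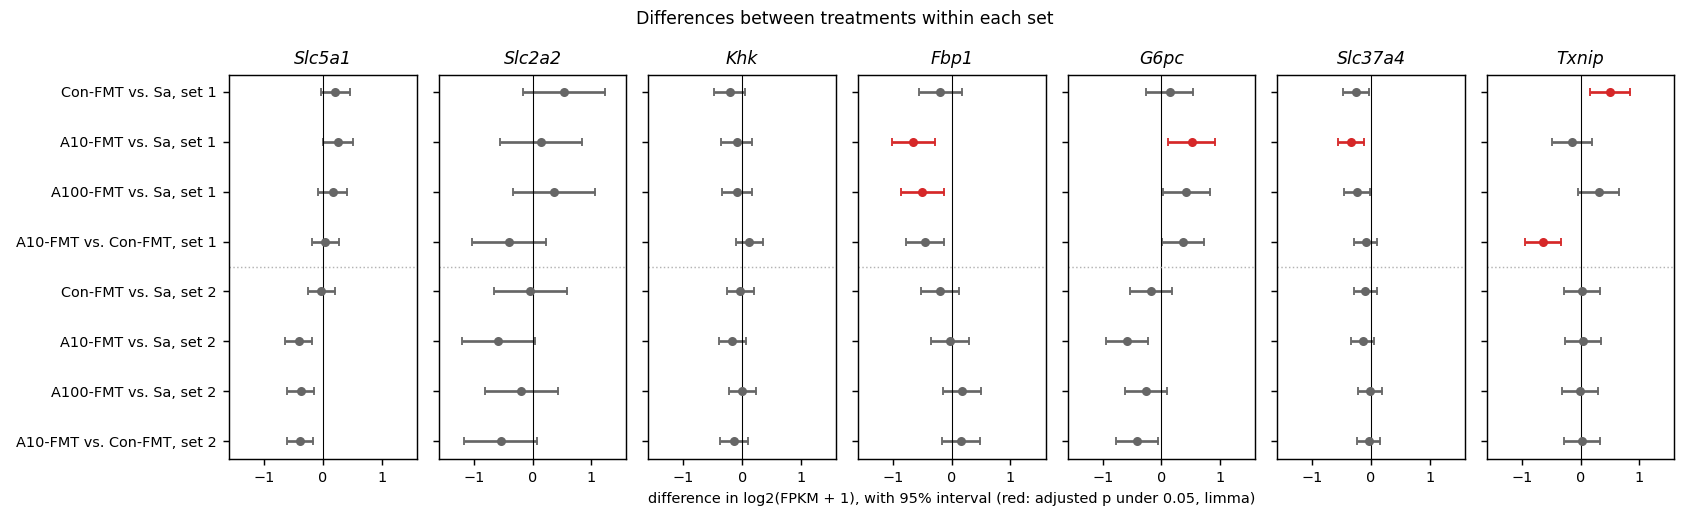
Differences in log2(FPKM + 1) between treatments within set 1 (above the dotted line) and set 2 (below) for the 7 tested genes, with 95% intervals from limma; red marks an adjusted p under 0.05. The 6 red points, 5 of them against Sa, are all in set 1.

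G6pc also differed between the sets in its response to A10-FMT: the effect against Sa was lower by -1.10 ± 0.26 in set 2 (adjusted p = 0.0045, limma) and that against Con-FMT by -0.79 ± 0.24 (adjusted p = 0.027). The first passed without Sa replicate 3 of set 1 (-0.94, adjusted p = 0.032) but not with array weights (adjusted p = 0.31). Fbp1 differed the other way for A100-FMT against Sa (0.68 ± 0.23, adjusted p = 0.041), and this did not hold without that library (adjusted p = 0.24). With Txnip, described next, and Slc5a1, 6 of 42 such differences were called. The shares of all tested genes were 28.4%, 26.8% and 0.00882% for A10-FMT, A100-FMT and Con-FMT against Sa, 20.8% and 0.0% for A10-FMT and A100-FMT against Con-FMT, and 3.5% for A100-FMT against A10-FMT.

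Txnip differed between the FMT groups of set 1. It was at 109.9, 66.5 and 76.0 FPKM in Con-FMT of set 1 and at 46.1, 51.1 and 60.3 FPKM in A10-FMT of set 1. All A10-FMT libraries lay below all Con-FMT libraries, and 1 Con-FMT library was well above the other 2. The difference was -0.65 ± 0.15 (95% interval -0.95 to -0.34, adjusted p = 0.0069, limma), and it passed without any 1 of the 23 libraries; fitted on the 2 groups alone, the adjusted p was 0.059. A100-FMT of set 1 was at 62.5, 76.8 and 77.0 FPKM, above all A10-FMT libraries (0.45 ± 0.15), and this did not pass (adjusted p = 0.076). In set 2 the 12 libraries lay between 56.24 and 71.66 FPKM, and the effect of A10-FMT against Con-FMT differed between the sets by 0.67 ± 0.21 (adjusted p = 0.030).

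This was the only call among 21 comparisons between FMT groups in set 1, where 16.7% (A10-FMT against Con-FMT), 0.406% (A100-FMT against Con-FMT) and 5.66% (A100-FMT against A10-FMT) of all tested genes were called. Values did not overlap for 4 of 7 genes between A10-FMT and Con-FMT of set 1 (42.1% of all tested genes) and for 1 of 7, Txnip, between A100-FMT and A10-FMT (36.5%). Fbp1 in A10-FMT against Con-FMT lay just outside (-0.46 ± 0.15, adjusted p = 0.050). In set 2 limma called none of the 21 (4 at an unadjusted p under 0.05), against 0.379%, 0.0% and 0.00882%, and over both sets none (4 at an unadjusted p under 0.05), against 0.0%, 0.123% and 0.132%. Other settings of limma differed. In set 1, Fbp1 in A10-FMT against Con-FMT passed with a replicate block (adjusted p = 0.041), with only the groups compared (0.035) and with the description's column (0.026). Txnip in A100-FMT against A10-FMT of set 1 passed only with the last of these (0.090, 0.077 and 0.036). Slc5a1 against Con-FMT in set 2 passed in none of them. Its adjusted p were 0.12, 0.20 and 0.051 in A10-FMT (-0.39) and 0.24, 0.22 and 0.061 in A100-FMT (-0.36). Leaving out Sa replicate 3 of set 1 kept the size of both differences and narrowed the shared spread. Whether these Slc5a1 differences pass thus depends on that library as well.

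Among the 10609 tested genes with a symbol it was compared with, Txnip had the log2 level most like that of Klf10, a transcription factor gene that glucose also induces (Pearson's r = 0.793 over the 23 libraries; 0.855 in set 1 and 0.648 in set 2). Klf10 was at 13.06 to 18.73 FPKM in Con-FMT of set 1 and at 10.14 to 10.98 FPKM in A10-FMT. Arrdc4, which encodes a relative of the Txnip protein, was at 14.0 to 22.36 FPKM and 12.76 to 13.18 FPKM in the same groups. In set 2 both genes went the other way. There Klf10 was at 11.48 to 13.16 FPKM in Con-FMT and 13.57 to 16.18 FPKM in A10-FMT, and Arrdc4 at 12.34 to 14.82 and 15.19 to 17.21 FPKM. Txnip overlapped between these groups of set 2 (63.81 to 71.66 and 61.45 to 70.82 FPKM). Klf10 was chosen for its likeness to Txnip over these libraries and Arrdc4 after its values were seen, so these levels are a description with no test. Of the 12 tested genes of the list of ChREBP and its targets, which held 14 genes, 1 was higher and 3 were lower in A10-FMT than in Con-FMT of set 1, where 16.7% of all tested genes were called. The median difference of the list was -0.11 against -0.08 over all tested genes. The gene called higher was Gpd1, a glycerol-3-phosphate dehydrogenase, at 132.37 to 138.02 FPKM in Con-FMT and 152.58 to 169.69 FPKM in A10-FMT (0.24 ± 0.06, adjusted p = 0.015, limma). Pklr, the pyruvate kinase gene, was at 91.42 to 108.19 and 104.8 to 122.29 FPKM and did not pass (0.19 ± 0.10, adjusted p = 0.18).

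**Figure D4:**
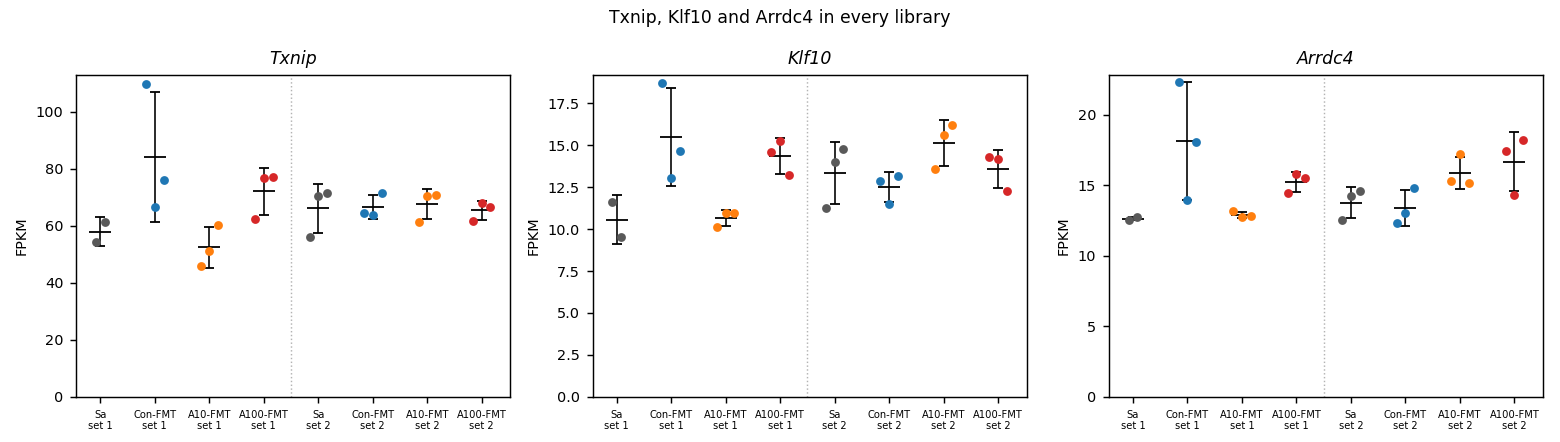
Txnip, Klf10 and Arrdc4 in FPKM in every library (points), with group mean and SD (bars) and axes from 0. In set 1 all 3 genes are lower in every A10-FMT library than in every Con-FMT library. In set 2 Klf10 and Arrdc4 are higher in every A10-FMT library than in every Con-FMT library, and Txnip overlaps.

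ChREBP and its partner bind pairs of E-box-like sequences. The 250 bases before each start site that RefSeq lists were searched on both strands for a pair of CACGNG half-sites 5 bases apart. Both half-sites had to point the same way. Pairs with a reversed half-site were not searched for and cannot be called absent before any gene. The single E-box CACGTG was searched for as well. Sequences are from RefSeq on GRCm38.p6, and all 8 genes were found there. The pair was present before Txnip, between positions -85 and -69 from the start site, and before none of the other 7; 0.0457% of 32851 promoters held it. The single E-box was present in the windows of Slc5a1, Khk and Arrdc4 and in 6.02% of promoters. The Khk window ends at a start site within the gene as placed above, so that its E-box, at positions -71 to -66 from that site, lies inside the annotated gene and not before its outermost start. The Txnip stretch (chr3:96557707-96557956, + strand) is shown whole, with the pair in capitals, because Txnip was the gene called between FMT groups; for the others 19 bases around the E-box are shown, at chr5:33104069-33104087 (+ strand), chr5:30921481-30921499 (+ strand) and chr7:68749420-68749438 (- strand). A match of letters is not a binding site, and no binding was measured.
Txnip: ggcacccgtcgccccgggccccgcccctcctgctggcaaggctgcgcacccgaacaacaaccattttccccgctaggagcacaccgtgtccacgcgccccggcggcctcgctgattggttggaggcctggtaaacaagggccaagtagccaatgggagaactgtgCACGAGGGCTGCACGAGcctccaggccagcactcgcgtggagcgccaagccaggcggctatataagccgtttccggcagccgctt
Slc5a1: tctgcctCACGTGggactc
Khk: tccccgtCACGTGacaccg
Arrdc4: tcctgtgCACGTGcactat

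The other 7 genes had different neighbours by the same measure over the 23 libraries, which share groups and sets. For G6pc these included Spns2 (r = 0.867) and Cyp3a25 (0.867), and for Slc5a1 they were Cobl (0.871), Prxl2a (0.867) and Atp6v0a2 (0.851). Slc2a2 was most like Osbpl3 (0.815), Vwa8 (0.79) and the sucrase-isomaltase gene Sis (0.762), and Khk most like Acaa1a (0.87), Smim24 (0.83) and Ms4a10 (0.81). Fbp1 was most like Coq8a (0.811), Oat (0.808) and Cmss1 (0.806), and Slc37a4 most like Ciapin1 (0.795), Tkfc (0.749), which encodes the kinase that acts on the glyceraldehyde from fructose, and Cryl1 (0.742). Slc2a5, at its low level, was most like Tbcb (0.771), Scand1 (0.766) and Fam104a (0.759), and after Klf10 Txnip was most like Med19 (0.789; 0.0453 in set 2) and Phrf1 (0.759; 0.199 in set 2). Without Sa replicate 3 of set 1, the values of Slc2a5 were 0.711, 0.667 and 0.654, in the order given, and those of Slc37a4 were 0.681, 0.649 and 0.575. Among the 21 pairs of tested members, r ranged from -0.201 to 0.777, the highest being Slc5a1 with G6pc.

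The paralogues of 2 members were the more abundant forms. Fbp2, which encodes the other fructose-1,6-bisphosphatase, averaged 189 FPKM, 8.71 to 16.3 times the level of Fbp1 in each library. G6pc3, the broadly expressed glucose-6-phosphatase, picked after its values were seen, was 2.4 to 7.87 times higher than G6pc. Where sequences are alike, fragments could have been shared between such genes, and how they were assigned is not given in the sources used here.

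Genes of the surrounding pathways were described by lists. The list of fructolysis and glycolysis had 23 of 26 genes tested, led by Gapdh (1868.7 FPKM on average), Ldha (1222.8) and Aldoa (648). Within A10-FMT, 1 of these was higher and 11 were lower in set 2 than in set 1, with a median difference of -0.25 against 0.12 over all tested genes, 30.4% of which were called in this comparison. In gluconeogenesis and its regulators, led by Mdh1 (330 FPKM), Fbp2 and Creb3l3 (83.2 FPKM), 1 of 14 was higher and 5 were lower in the same comparison (median -0.16), not far above that share. Creb3l3, a regulator of fasting metabolism, was at 106.69 to 134.84 FPKM in set 1 and 56.72 to 73.76 FPKM in set 2 (-0.89 ± 0.12, adjusted p = 9.7e-05, limma), and Pck1, the enzyme that makes phosphoenolpyruvate and picked after its values were seen, at 5.87 to 14.07 and 2.72 to 3.4 FPKM.

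All 4 disaccharidase genes, which encode brush-border enzymes that split dietary sugars, were tested: Sis (206 FPKM), Mgam (138), Lct (82.9) and Treh (71.5). Between the sets of A10-FMT, Treh (trehalase) fell by 1.09 (SE 0.15, adjusted p = 7.1e-05, limma) and Lct (lactase) by 0.76 (SE 0.22, adjusted p = 0.014), and the other 2 were not called; the median of the 4 was -0.46. Sis stood at 202.38 and 62.27 FPKM in the 2 Sa libraries of set 1, against 155.61 to 277.02 FPKM in the 21 libraries outside that group. Among the other sugar transporters, 9 of 16 were tested, led by Slc50a1 (30.3 FPKM), Slc5a11 (17.6) and Slc5a4b (17.2), and 4 were lower and none higher in set 2 of A10-FMT (median -0.23), against the 30.4% of all tested genes called. Galactose and glycogen metabolism, which includes Pgm2 (58.5 FPKM) and Galm (47.9), had 11 of 14 tested, of which 2 were higher and 1 was lower (median -0.01), a share near that of all tested genes. The list of ChREBP and its targets was led by Gpd1 (138 FPKM), Pklr (97.9) and Mlx (71.3). Of its 12 tested genes, 4 were higher and 3 lower (median 0.26). In this comparison, also that of the disaccharidases, 30.4% of all tested genes were called, with a median of 0.12. Against Sa over both sets, limma called no gene of the 6 lists (38 of 216 gene comparisons had an unadjusted p under 0.05). Of all tested genes, 0.75%, 0.132% and 0.891% were called for Con-FMT, A10-FMT and A100-FMT. The share of all tested genes at the unadjusted limit is not given here, so neither this count nor those of the 7 members above are read as an excess.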

How the data were processed

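RNA extracted with TRIzol was sequenced by the authors on the Illumina HiSeq platform, and their methods describe RPKM; the deposited table holds FPKM, per the file headers, with 24 columns for 23 libraries and no column of another series. The submitters' notes name mm10, and the aligner is not given in the sources used here. Values of genes above 0 in few libraries were not whole multiples of each other (23.5% within 0.1), so no read depth was recovered and no count model was fitted. Sums of FPKM ran from 556466 to 667957 per library.

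Genes whose mean reached 1 FPKM were analysed as log2(FPKM + 1), which understates changes of low genes, with limma 3.58.1 in R 4.3.3: 1 mean per group, contrasts, eBayes with trend, and Benjamini-Hochberg adjustment over 11337 genes at 0.05. Contrasts compared treatments within each set and averaged over both, their difference between the sets, and the sets within a treatment. The fit was tested on simulated data. The 8 genes and the lists were chosen with earlier results of these data known. Text names all 8, the 3 most abundant genes of each pathway list, genes of these lists called against Sa over both sets, and the 3 genes most correlated with each of the 8. Some items that this rule names are not reported here. For Sa replicate 3 of set 1 the column of its title was used. Alternatives were a pseudocount of 0.1, no filter, a mean of at least 5 FPKM, quantile or trimmed-mean scaling, only the groups compared, a replicate block, array weights, adjusting for GC content and length, the column the description names, and leaving out each library.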

Additional observations from a re-analysis of the deposited data

Results flagged for a closer look

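In all, 6 effects differed between set 1 and set 2 by the interaction test of limma (Benjamini-Hochberg adjusted p under 0.05), each given as the set 2 effect minus the set 1 effect in log2(FPKM + 1). For A10-FMT against Sa these were Slc5a1 (-0.67) and G6pc (-1.10). For A100-FMT against Sa they were Slc5a1 (-0.55) and Fbp1 (0.68). Without Sa replicate 3 of set 1, Slc5a1 was at -0.44 and -0.32 and Fbp1 at 0.53, none of them past the threshold. G6pc was then at -0.94, which passed. With the column that the description of this library names, Slc5a1 (-0.60 and -0.48) and G6pc (-1.23) passed. Fbp1 (0.555, adjusted p = 0.089, limma) did not. For A10-FMT against Con-FMT, in which no Sa library enters, they were G6pc (-0.79) and Txnip (0.67). Leaving out single libraries kept the G6pc difference against Con-FMT called in 18 of 23 cases and that of Txnip in 16 of 23.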

How the results depend on the processing

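Of the 1386 values of 42 single-gene changes under the alternatives, 1209 kept their direction and side of the threshold, 126 lost it and 50 gained it. Only Khk in Con-FMT against Sa of set 1, not called, changed sign, to 0.0797 with GC content and length adjusted. The count of calls against Sa in set 1 (5) was 2 without a filter, with the description's column and with GC content and length adjusted, and 0 with only the groups compared and with array weights. In set 2 the count (0) was 2 with only the groups compared and with the description's column, 3 with array weights and 1 with GC content and length adjusted. Between FMT groups the count in set 1 (1) was 2 at a mean of at least 5 FPKM, with array weights and with GC content and length adjusted, and 3 with the description's column; in set 2 (0) it was 3 with array weights and 1 with GC content and length adjusted. Between the sets within a treatment it was 4, not 2, with array weights.

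Leaving out single libraries gave 0 to 12 calls against Sa in set 1, 0 to 2 in set 2 and 0 to 5 over both sets. Between FMT groups it gave 1 to 3, 0 to 2 and 0. Differences between the sets ranged from 4 to 14, and calls between the sets from 2 to 5. The highest counts against Sa in set 1 and over both sets, and both kinds between the sets, came without Sa replicate 1 of set 1. That leaves 1 Sa library in that set, assumed to vary like the other groups. Shares of all tested genes called in these fits are not given here.

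The replicate block gave 2 calls between FMT groups in set 1, where Fbp1 in A10-FMT against Con-FMT passed, and lost G6pc in A10-FMT against Sa (adjusted p = 0.056). The numbers share no stated origin: deviations of same-numbered libraries correlated at -0.352 to 0.319, and 5 of 23 libraries correlated best with their own number. The causes of these changes were not tested. Depth could not be recovered from the files, and groups of 2 or 3 libraries limit each comparison.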
